A study of Homo sapiens with 36 samples.

Results

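The genes described here encode the IκB kinases and the kinases that act on or beside them in NF-κB signalling. They were chosen by name and number 7 of the 35490 genes that could be summed from the deposited transcript tables: IKBKB, CHUK, IKBKG, TBK1, IKBKE, MAP3K14 and MAP3K7. Their values were read as gene sums and as single transcripts, of which 76 are listed for these genes. RNA was sequenced from MOLM-13 and MONO-MAC-6, a pair of established human acute myeloid leukaemia lines whose genotype is labelled wild type. Each line received either DMSO, the vehicle, or A9 for 72 h, with A9 at 0.125 µM in MOLM-13 and at 0.25 µM in MONO-MAC-6. A9 is a PROTAC, a compound that brings a target protein to the ubiquitin machinery for degradation. The design text gives IKK2 and NR4A1 as its targets, while the title of the series gives IKK1 in place of IKK2, and the genes of both kinases are among the 7. The question put to these genes is whether their RNA, and the mixture of transcripts behind it, differed with A9.

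In the canonical pathway, receptors of cytokines and microbial products assemble ubiquitin chains on which MAP3K7 (TAK1) is activated, and TAK1 phosphorylates the IKK complex. That complex holds the kinases IKBKB (IKK2, IKKβ) and CHUK (IKK1, IKKα) on the scaffold IKBKG (NEMO), and it marks IκB proteins for destruction so that NF-κB can enter the nucleus. In the alternative pathway MAP3K14 (NIK) activates CHUK, which leads to the processing of the NFKB2 precursor. TBK1 and IKBKE (IKKε) are the related kinases that phosphorylate interferon regulatory factors downstream of nucleic acid sensors. NF-κB signalling is often active in leukaemic cells of the myeloid lineage.

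The 4 groups held 9 libraries each. Every label carries a pair of numbers, and libraries alike in the first of them were averaged, which left 3 samples per group. The labels do not say whether these samples were separate cultures, so p-values measure only the spread between them. The values are TPM, which keep no read counts, and the depth behind each value is unknown. Transcripts above 0 numbered from 86918 to 105082 per library. Of the 10 myeloid markers checked, 9 reached a mean of 1 TPM in MOLM-13 in both groups, with CD14 below it, and 10 did so in MONO-MAC-6. The summed level of these markers ran from 743 to 814 TPM with DMSO and from 969 to 1116 TPM with A9 in MOLM-13, and from 3803 to 4343 TPM and from 8556 to 8868 TPM in MONO-MAC-6. Most of that difference was LYZ, the lysozyme gene, at 122 to 141 and 317 to 343 TPM in MOLM-13 and at 3068 to 3624 and 7564 to 7868 TPM in MONO-MAC-6. CD33 (31.7 to 35.4 and 37.3 to 40.9 TPM), SPI1 and CEBPA were also wholly higher with A9 in MOLM-13. In MONO-MAC-6 this held for CD33, SPI1, CEBPA, CD14 (2.66 to 3.71 and 12.4 to 13.5 TPM), CD68 and CSF3R. All A9 samples lay above all DMSO samples for 8.58% and 27.2% of all genes tested in these lines. The remaining markers of the list overlapped between the groups, such as ITGAM (5.33 to 9.16 and 3.27 to 5.69 TPM) and PTPRC (14.4 to 33.5 and 4.42 to 18.02 TPM) in MOLM-13. The part of these markers in the kinase values was not tested. The T cell marker CD3E, the B cell marker MS4A1, the globin gene HBB and the keratin gene KRT19 were listed at 0 in every sample. In bulk RNA, fewer cells of a type and less RNA per cell cannot be told apart. MONO-MAC-6 DMSO sample 1 and MOLM-13 A9 sample 3 stood apart from the rest, and their transcripts, weighted by TPM, had the lowest mean lengths of the 12 samples, 1241 and 1227 bases against 1289 to 1444 bases. Differences given below for single gene sums and transcript shares that the first of them moved by more than 1.5 times appear with and without it. This leaves aside IKBKGP1 and MAP3K14, for which values without that sample are not given. Medians over lists of pathway genes appear only with all samples.

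No kinase gene of the 7 passed the test with A9 in either line, and MAP3K14 lay under the filter on low values. In limma, on log2(TPM + 1), 6 of the 7 reached a group mean of 1 TPM, and 0 of them had an adjusted p under 0.05 in MOLM-13, where 0.121% of all genes tested did. In MONO-MAC-6 0 of 6 passed, where 3.36% of all genes did. In the test of the difference between the lines 0 of 6 passed, against 2.99% of all genes, and since the dose differed too, line and dose cannot be told apart. At an unadjusted p under 0.05, IKBKG was the 1 member in MOLM-13, where 7.89% of all genes were under it, and there was 0 in MONO-MAC-6, where 20.4% were. The MOLM-13 median log2 difference over the 6 members was -0.031, beside -0.046 over all genes, and the MONO-MAC-6 median was 0.21, beside 0.16 over all genes. Without DMSO sample 1 the MONO-MAC-6 medians were 0.043 over the members and 0.027 over all genes. Median-ratio scaling took the median of all genes in MONO-MAC-6 to 0.0070 and that of the members to 0.039, so differences there are read relative to that shift.

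**Figure D1:**
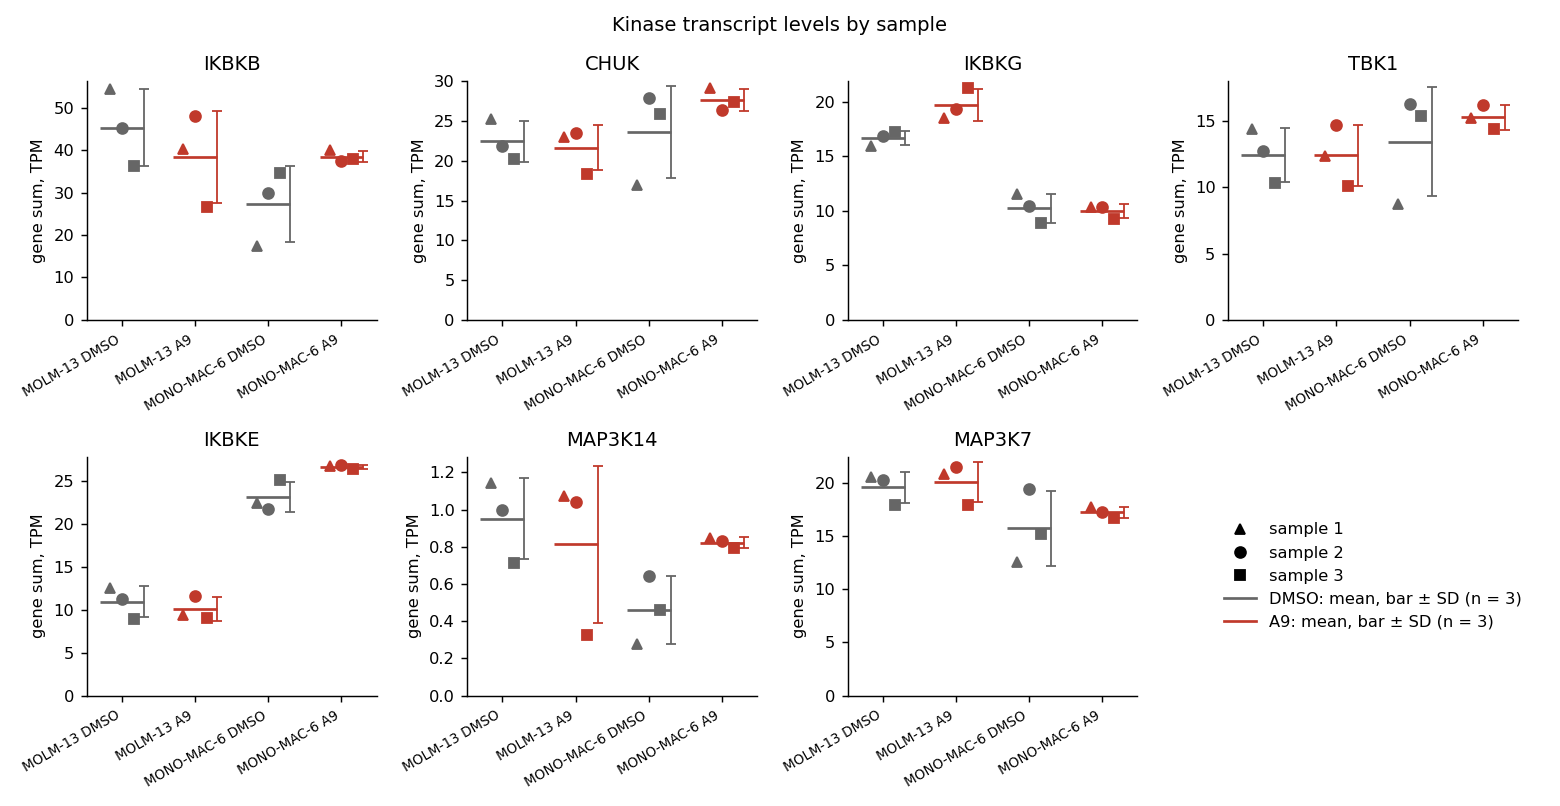
Summed TPM of each kinase gene (vertical axes, linear and from 0) in the 3 samples of each group, with the mean and SD of the group. IKBKB spans 17.3 to 54.4 TPM. IKBKE is higher, and IKBKG lower, in every MONO-MAC-6 sample than in any MOLM-13 sample. MONO-MAC-6 DMSO sample 1 (grey triangle) is the lowest of its group for IKBKB, CHUK, TBK1, MAP3K14 and MAP3K7.

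By level per length, with all transcripts of a gene summed, IKBKB had the highest mean of the 7 genes in all 4 groups and MAP3K14 the lowest. With DMSO in MOLM-13 the order of the means was IKBKB, CHUK, MAP3K7, IKBKG, TBK1, IKBKE and MAP3K14, and the ranges of the samples overlapped between CHUK and MAP3K7 and between TBK1 and IKBKE. In MONO-MAC-6 with DMSO the order was IKBKB, CHUK, IKBKE, MAP3K7, TBK1, IKBKG and MAP3K14, and there IKBKB overlapped CHUK, CHUK overlapped IKBKE, MAP3K7 overlapped TBK1 and TBK1 overlapped IKBKG. IKBKE thus moved from rank 6 in MOLM-13 to rank 3 in MONO-MAC-6, and IKBKG from rank 4 to rank 6. Over protein-coding transcripts alone, a grouping that was not tested, IKBKB did not lead. Its means there were 15.6 and 14.3 TPM in MOLM-13 and 11.4 and 10.9 TPM in MONO-MAC-6 (DMSO, then A9). Those of CHUK were 18.9 and 18.02 TPM in MOLM-13 and 20.3 and 22.7 TPM in MONO-MAC-6. The coding levels of IKBKB and CHUK overlapped between samples in MOLM-13 and not in MONO-MAC-6. The tables of the lines were deposited separately, so these levels are set side by side with no test.

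IKBKB (ENSG00000104365, GRCh38 chromosome 8, 42271302 to 42332653, plus strand) encodes the catalytic subunit that most IκB phosphorylation depends on. Its summed level in MOLM-13 was 54.4, 45.3 and 36.2 TPM in DMSO samples 1 to 3 and 40.2, 48.1 and 26.6 TPM in A9 samples 1 to 3. These groups overlapped, and the highest and the lowest sample were DMSO sample 1 and A9 sample 3. The log2 difference was -0.26 (SE 0.243, 95% interval -0.84 to 0.33, limma adjusted p = 0.870). It ran from -0.44 to -0.022 when each sample was left out in turn, and the latter was without A9 sample 3. Across the MONO-MAC-6 samples it was 17.3, 29.9 and 34.6 TPM with DMSO and 39.9, 37.5 and 38.0 TPM with A9. Every A9 sample lay above every DMSO sample, as was the case for 27.2% of all genes tested in that line. The difference of 0.53 on the log2 scale (SE 0.245, 95% interval -0.056 to 1.13) had an adjusted p of 0.279 in limma and was 0.36 after median-ratio scaling. Without DMSO sample 1 it was 0.25 (SE 0.072) with an adjusted p of 0.036, and in that fit 24.8% of all genes passed. The MONO-MAC-6 difference exceeded the MOLM-13 one by 0.79 on the log2 scale (limma adjusted p = 0.304), and by 0.51 without MONO-MAC-6 DMSO sample 1 (adjusted p = 0.460).

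**Figure D2:**
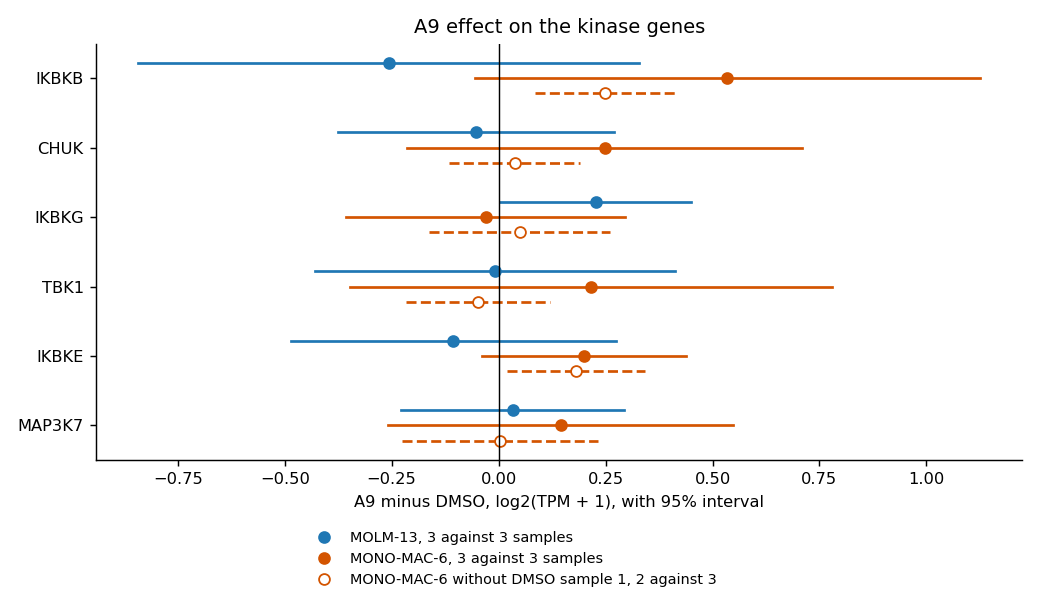
Log2 difference of A9 minus DMSO with its 95% interval from limma (horizontal axis) for the 6 tested genes, by line and, for MONO-MAC-6, also without DMSO sample 1. Leaving out that sample moves the MONO-MAC-6 values of CHUK, TBK1 and MAP3K7 to between -0.048 and 0.037 and leaves IKBKB at 0.25 and IKBKE at 0.18.

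The IKBKB sum is spread over many transcripts, of which 32 of the 33 annotated are listed: 7 protein-coding, 11 with a retained intron, 10 marked for nonsense-mediated decay and 4 processed transcripts with no reading frame. The main one was IKBKB-217, which encodes the whole kinase in 756 codons. It made up 27.2%, 30.2% and 35.7% of IKBKB in the MOLM-13 DMSO samples and 30.8%, 29.4% and 37.6% in the A9 samples, which overlapped. In MONO-MAC-6 it made up 42.0%, 39.0% and 30.8% with DMSO and 24.7%, 27.6% and 24.8% with A9, so that every A9 sample lay below every DMSO sample; groups were apart for 22.4% of all shares tested in this line. That share was 11.6 percentage points lower with A9 (37.3% ± 5.78 against 25.7% ± 1.62, SD, n = 3), with an unadjusted limma p of 0.014 and an adjusted p of 0.539. Among all isoform shares tested in MONO-MAC-6, 8.62% had an unadjusted p under 0.05 and 0% an adjusted one.

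Taken over all 7 protein-coding transcripts, a grouping made after the values were seen and therefore not tested, the coding share of IKBKB in MONO-MAC-6 was 50.1%, 45.6% and 34.1% with DMSO and 27.7%, 30.1% and 27.3% with A9. The coding level itself was 11.4 TPM ± 2.50 with DMSO and 10.9 TPM ± 0.472 with A9 (SD, n = 3). Processed transcripts went from 3.65 TPM ± 1.74 to 8.63 TPM ± 1.59, retained-intron transcripts from 7.44 TPM ± 2.45 to 11.2 TPM ± 0.689, and decay-marked transcripts from 4.83 TPM ± 3.25 to 7.68 TPM ± 0.429. The higher IKBKB sum with A9 in MONO-MAC-6 thus lay outside the protein-coding transcripts. Without DMSO sample 1, the DMSO means were 12.7 TPM for coding, 4.51 TPM for processed, 8.85 TPM for retained-intron and 6.19 TPM for decay-marked transcripts. In MOLM-13 the coding share was 35.0% ± 5.07 with DMSO and 38.7% ± 7.83 with A9, with the highest value, 47.6%, in A9 sample 3. IKBKB-219, a processed transcript of 260 bases and 3 exons, was at 1.89 TPM ± 0.844 with DMSO and 4.96 TPM ± 1.61 with A9 in MONO-MAC-6, groups that did not overlap, as for 31.2% of all transcripts tested there (log2 difference 1.04, limma adjusted p = 0.220). IKBKB-214, with a retained intron, held 10.0% and 10.2% of the gene in the MOLM-13 groups.

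**Figure D3:**
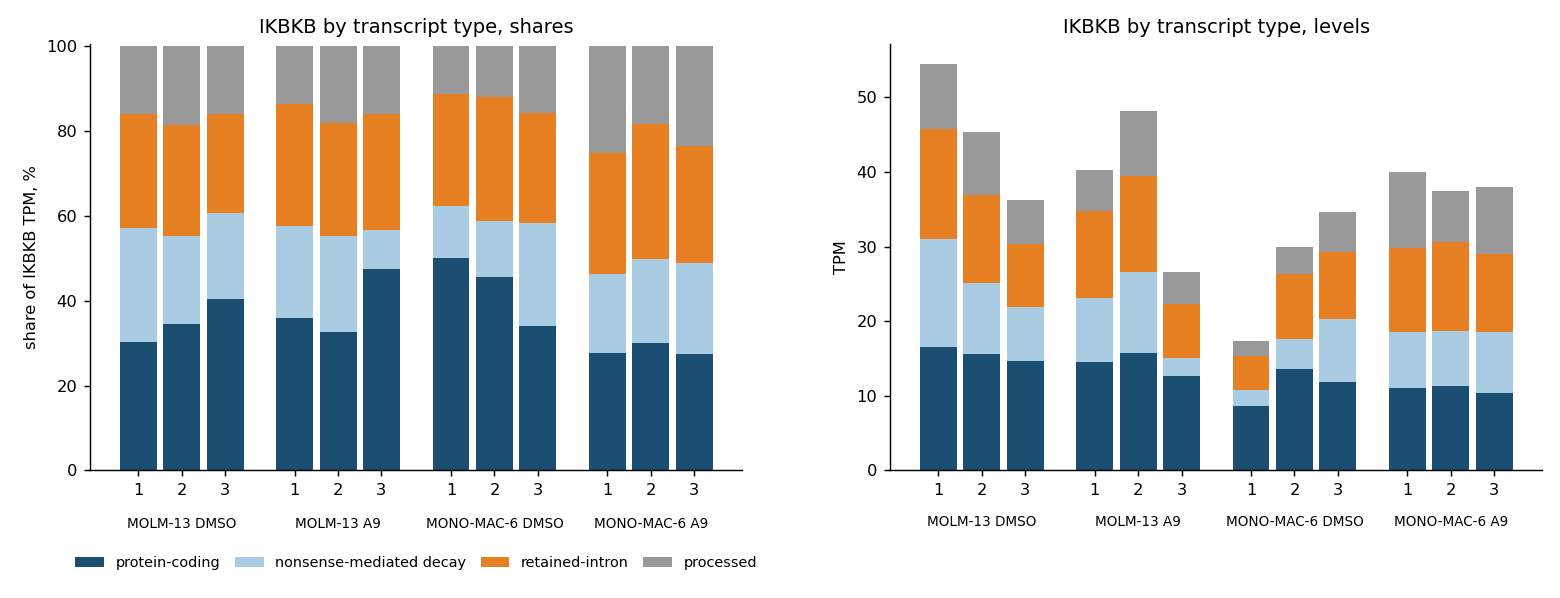
IKBKB by annotated transcript type in each of the 12 samples, as shares of the gene in percent (left) and as TPM (right), both stacked and from 0. In MONO-MAC-6 the coding segment lies between 8.68 and 13.6 TPM in all 6 samples, and the A9 samples hold more of the processed transcripts.

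CHUK (ENSG00000213341, chromosome 10, 100188298 to 100229619, minus strand), the catalytic subunit that also serves the alternative pathway, had 25.3, 21.9 and 20.2 TPM with DMSO and 23.0, 23.5 and 18.4 TPM with A9 in MOLM-13. Its MONO-MAC-6 samples were at 17, 28 and 25.9 TPM with DMSO and at 29.2, 26.4 and 27.4 TPM with A9. The groups overlapped in both lines, and the low value in MONO-MAC-6 was that of DMSO sample 1. The log2 differences were -0.052 (limma adjusted p = 0.933) and 0.25 (adjusted p = 0.459), and the latter was 0.037 without that sample. CHUK-201, which encodes the whole kinase in 745 codons, held between 80.3% and 92.4% of the gene in the 12 samples. The rest was mostly CHUK-202, a processed transcript of 424 bases, at 13.4% ± 3.19 and 13.4% ± 1.62 in MOLM-13 and at 11.6% ± 5.25 and 15.7% ± 3.46 in MONO-MAC-6 (DMSO, then A9, SD, n = 3). Neither share passed the test in either line, and the CHUK-202 difference in MONO-MAC-6 was 4.09 percentage points with DMSO sample 1 and 1.36 without it. The CHUK-201 difference there was -4.77 points with that sample and -2.04 without it.

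IKBKG (ENSG00000269335, chromosome X, 154541199 to 154565046, plus strand), the ubiquitin-binding scaffold of the complex, was the 1 member whose MOLM-13 groups were apart. It had 15.99, 16.84 and 17.2 TPM with DMSO and 18.5, 19.4 and 21.3 TPM with A9 there, all A9 samples above all DMSO samples, as for 8.58% of all genes tested in that line. The log2 difference was 0.23 (SE 0.093, 95% interval 0.0032 to 0.45), with an unadjusted limma p of 0.048 and an adjusted p of 0.629. It ran from 0.17 to 0.27 when each sample was left out in turn. In MONO-MAC-6 the values were 11.5, 10.4 and 8.84 TPM with DMSO and 10.3, 10.4 and 9.24 TPM with A9, which overlapped (log2 difference -0.031, limma adjusted p = 0.894; 0.049 without DMSO sample 1). Across the 12 samples, with the mean of each line removed, IKBKG went against the other members compared. Its Pearson r was -0.69 with IKBKB, -0.56 with CHUK, -0.49 with IKBKE, -0.48 with TBK1 and -0.24 with MAP3K7. IKBKB and CHUK had 0.93, CHUK and TBK1 0.94, and CHUK and MAP3K7 0.89. These correlations rest in part on the pair of samples with short mean transcript length. Over the other 10 samples the r of IKBKG was -0.19 with IKBKB and -0.23 with IKBKE. With CHUK, TBK1 and MAP3K7 its sign changed, to 0.15, 0.24 and 0.64. The r of IKBKB and CHUK was 0.67 there, that of CHUK and TBK1 0.70 and that of CHUK and MAP3K7 0.68.

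The gene has 2 clusters of annotated starts, 4 transcripts that begin upstream and 11 that begin downstream. Whether the library kit kept strand is not stated in the labels, so for none of the 7 genes can reads be told apart by strand. The upstream transcripts held 9.05% ± 2.44 and 10.6% ± 2.95 of IKBKG in MOLM-13 with DMSO and A9, and 11.0% ± 9.26 and 13.4% ± 4.45 in MONO-MAC-6 (SD, n = 3). IKBKG-206, which starts downstream and encodes 419 codons, held 80.3% ± 8.97 and 80.4% ± 2.29 in MOLM-13 and 72.7% ± 16.4 and 59.5% ± 7.87 in MONO-MAC-6, a difference of -13.2 percentage points that was -5.74 without DMSO sample 1. IKBKG-214, the upstream transcript with 487 codons, held 8.48% and 10.2% in MOLM-13 and 8.78% and 11.9% in MONO-MAC-6, and the incomplete IKBKG-205 9.55% and 13.6% in MONO-MAC-6. Without DMSO sample 1 the latter differences were 0.773 and 0.889 points, and the upstream transcripts held 14.5% of IKBKG with DMSO. The pseudogene IKBKGP1, a near copy that can share reads with IKBKG, was listed at 5.05 TPM or less in every sample. Its MOLM-13 samples ran from 0.586 to 5.05 TPM with DMSO and from 2.37e-06 to 2.74 TPM with A9. That log2 difference of -0.92 (limma, adjusted p = 0.855) was opposite in sign to the one of IKBKG. For MONO-MAC-6 the ranges were 1.07 to 1.76 TPM and 0.339 to 1.56 TPM (log2 difference -0.43). The groups overlapped in both lines. The part of IKBKGP1 in the IKBKG values was not tested.

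TBK1 (ENSG00000183735, chromosome 12, 64451880 to 64502108, plus strand), the kinase of the nucleic acid sensing pathways, had 14.4, 12.7 and 10.3 TPM with DMSO and 12.4, 14.7 and 10.1 TPM with A9 in MOLM-13. The MONO-MAC-6 samples held 8.71, 16.2 and 15.4 TPM with DMSO and 15.2, 16.2 and 14.4 TPM with A9. The groups overlapped in both lines, with log2 differences of -0.0091 (limma adjusted p = 0.994) and 0.22 (adjusted p = 0.575), the latter -0.048 without DMSO sample 1. TBK1 was otherwise nearly a single transcript: TBK1-201, with 729 codons, held between 92.5% and 96.4% of the gene in 10 of the 12 samples. The exceptions were MONO-MAC-6 DMSO sample 1, at 62.9%, and MOLM-13 A9 sample 3, at 86.4%. In these samples TBK1-208, a retained-intron transcript of 408 bases, took up 34.8% and 12.6%, against 1.33% to 4.55% in the others. The TBK1-201 share in MONO-MAC-6 was 11.9 percentage points higher with A9, and 1.56 points higher without DMSO sample 1. They are the samples with the lowest mean transcript length, and the part of that in the shares was not tested.

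IKBKE (ENSG00000263528, chromosome 1, 206470476 to 206496889, plus strand), the inducible relative of TBK1 found mostly in immune cells, was higher in every MONO-MAC-6 sample than in any MOLM-13 sample. IKBKG lay the other way, at 8.84 to 11.5 TPM in MONO-MAC-6 and 15.99 to 21.3 TPM in MOLM-13. The lines were not compared by a test, and the share of all genes with the lines apart was not counted. IKBKE had 12.6, 11.2 and 8.98 TPM with DMSO and 9.44, 11.6 and 9.07 TPM with A9 in MOLM-13. Its MONO-MAC-6 values were 22.5, 21.8 and 25.2 TPM with DMSO and 26.7, 26.9 and 26.5 TPM with A9. The MOLM-13 groups overlapped (log2 difference -0.11, limma adjusted p = 0.892, from -0.23 to -0.0064 with each sample left out). Every MONO-MAC-6 A9 sample lay above every DMSO sample, as for 27.2% of all genes tested there (0.20, SE 0.10, limma adjusted p = 0.305). Without DMSO sample 1 the difference was 0.18 with an adjusted p of 0.097, and after median-ratio scaling of all samples it was 0.028.

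Its transcripts split mainly between IKBKE-203, which encodes the whole kinase in 716 codons, and IKBKE-202, which has 5 exons and 153 codons. IKBKE-203 held 50.2% ± 5.18 and 45.5% ± 3.15 of the gene in MOLM-13 and 54.8% ± 6.10 and 55.4% ± 1.76 in MONO-MAC-6 (DMSO, then A9, SD, n = 3). IKBKE-202 held 31.2%, 34.3% and 32.1% with DMSO and 31.4%, 36.2% and 42.6% with A9 in MOLM-13. In MONO-MAC-6 it held 39.7%, 23.7% and 25.4% with DMSO and 20.6%, 19.97% and 20.4% with A9. Each A9 sample there lay below each DMSO sample, and groups were apart for 22.4% of all shares tested in this line. The share difference of -9.29 percentage points had an adjusted p of 0.539 in limma. Without DMSO sample 1 it was -4.25 points (limma adjusted p = 0.438), and that of IKBKE-203 went from 0.637 to -2.40 points. The samples with short mean transcript length again held the highest share of the short form in their line.

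MAP3K14 (ENSG00000006062, chromosome 17, 45263119 to 45317145, minus strand), the kinase NIK, whose protein is kept low by constant degradation in resting cells, was near the lower limit of the tables. It had 1.14, 0.999 and 0.713 TPM with DMSO and 1.07, 1.04 and 0.327 TPM with A9 in MOLM-13. MONO-MAC-6 samples held 0.279, 0.641 and 0.463 TPM with DMSO and 0.847, 0.829 and 0.794 TPM with A9. The means stayed under 1 TPM in all 4 groups, so the filter on low values kept it out of the tests. Without that filter its log2 difference was -0.13 in MOLM-13 (limma adjusted p = 0.890) and 0.33 in MONO-MAC-6 (adjusted p = 0.284). Every MONO-MAC-6 A9 sample lay above every DMSO sample, and the means of these groups had a ratio of 1.79. The same held for 27.2% of all genes tested in that line, a set that does not include MAP3K14. The lowest sample of that line was DMSO sample 1, at 0.279 TPM. Among its 5 listed transcripts, MAP3K14-201, which encodes 947 codons, held 69.6% and 50.2% in MOLM-13 and 55.4% and 70.3% in MONO-MAC-6, and the retained-intron form MAP3K14-204 25.7%, 39.3%, 28.4% and 9.22%, with SDs between 8.24 and 31.8 points. At this level its mixture of transcripts was read no further.

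MAP3K7 (ENSG00000135341, chromosome 6, 90513573 to 90587045, minus strand), the kinase TAK1 upstream of both the IKK complex and the stress MAP kinases, did not pass the test as a sum. The lines held the forms of its RNA in different shares, which were set side by side with no test. It had 20.6, 20.2 and 17.9 TPM with DMSO and 20.8, 21.5 and 17.9 TPM with A9 in MOLM-13. The MONO-MAC-6 sums were 12.5, 19.4 and 15.1 TPM with DMSO and 17.7, 17.3 and 16.7 TPM with A9. All groups overlapped, with log2 differences of 0.032 (limma adjusted p = 0.949) and 0.14 (adjusted p = 0.598), and the latter was 0.0032 without DMSO sample 1.

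4 transcripts run over the full length of the gene, and apart from their first bases they differ in exons 12 and 16, the alternatively spliced exons of TAK1. Exon 12 (GRCh38 chromosome 6, 90544552 to 90544632, minus strand) has 81 bases, all coding, which add 27 codons in frame. It is held by MAP3K7-204 (606 codons) and MAP3K7-202 (518 codons) and absent from MAP3K7-205 (579 codons) and MAP3K7-203 (491 codons). Exon 16 (90518447 to 90518562) has 116 bases, all coding in MAP3K7-204, which leave 2 bases over after whole codons, so that its loss changes the reading frame and the end of the protein. It is held by MAP3K7-204 and MAP3K7-205. The sequences below, read from the GENCODE 29 transcripts 5′ to 3′, show what separates the forms, with the exon in capitals and 20 bases of its neighbours in lower case.
MAP3K7 with exon 12: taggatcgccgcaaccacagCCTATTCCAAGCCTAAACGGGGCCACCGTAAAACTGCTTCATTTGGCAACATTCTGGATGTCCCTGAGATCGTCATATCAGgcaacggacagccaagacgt
MAP3K7 without exon 12: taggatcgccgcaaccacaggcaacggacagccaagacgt
MAP3K7 with exon 16: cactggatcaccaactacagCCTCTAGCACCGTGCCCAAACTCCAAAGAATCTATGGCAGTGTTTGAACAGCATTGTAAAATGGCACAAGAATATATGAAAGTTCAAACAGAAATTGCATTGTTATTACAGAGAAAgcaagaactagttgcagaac
MAP3K7 without exon 16: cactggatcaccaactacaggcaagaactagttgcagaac

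In MOLM-13 the main transcript was MAP3K7-205, the form with exon 16 and without exon 12. It held 47.2%, 45% and 57.3% of the gene with DMSO and 49.8%, 42.4% and 57.8% with A9. In MONO-MAC-6 the main transcript was MAP3K7-204, the longest form, with both exons: 39.3%, 51.7% and 59.9% with DMSO and 57.6%, 64.0% and 57.6% with A9. The same transcript held between 9.23% and 22.1% in the MOLM-13 samples, and MAP3K7-205 between 0.844% and 28.5% in the MONO-MAC-6 samples, where the 28.5% was DMSO sample 1 and the next highest 5.51%. MAP3K7-203, without both exons, held 24.9% and 20.3% in the MOLM-13 groups and 19.0% and 11.9% in the MONO-MAC-6 groups.

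Over the 4 full-length transcripts, the percent of TPM with exon 12 was 17.1, 15.1 and 11.9 with DMSO and 21.8, 26.8 and 11.7 with A9 in MOLM-13. In MONO-MAC-6 it was 51.2, 66.8 and 76.2 with DMSO and 78.1, 85.8 and 76.3 with A9. The lines did not overlap, even over single libraries, which ran from 5.92% to 32.2% in MOLM-13 and from 39.5% to 96.3% in MONO-MAC-6. This grouping by exon was made after the values were seen and was not tested. How many other transcript shares set the lines apart was not counted. Within MONO-MAC-6 the A9 samples lay above the DMSO samples, by 76.26% against 76.22% at the nearest pair, and the single-transcript shares behind it did not pass (MAP3K7-204, 9.40 percentage points higher, limma adjusted p = 0.539, and 3.90 points without DMSO sample 1). Without that sample the DMSO mean of the percent with exon 12 was 71.5. The percent with exon 16 overlapped between the lines, at 65.3% to 76.8% in MOLM-13 and 69.3% to 85.4% in MONO-MAC-6. MAP3K7-206, a non-coding transcript of 5 exons, held 11.4% ± 0.507 and 11.4% ± 2.20 of the gene in MOLM-13 and 14.3% ± 4.29 and 19.3% ± 0.579 in MONO-MAC-6. Each MONO-MAC-6 A9 sample lay above each DMSO sample (4.96 percentage points, limma adjusted p = 0.539, and 2.60 points without DMSO sample 1). Groups were apart for 22.4% of all shares tested in that line.

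**Figure D4:**
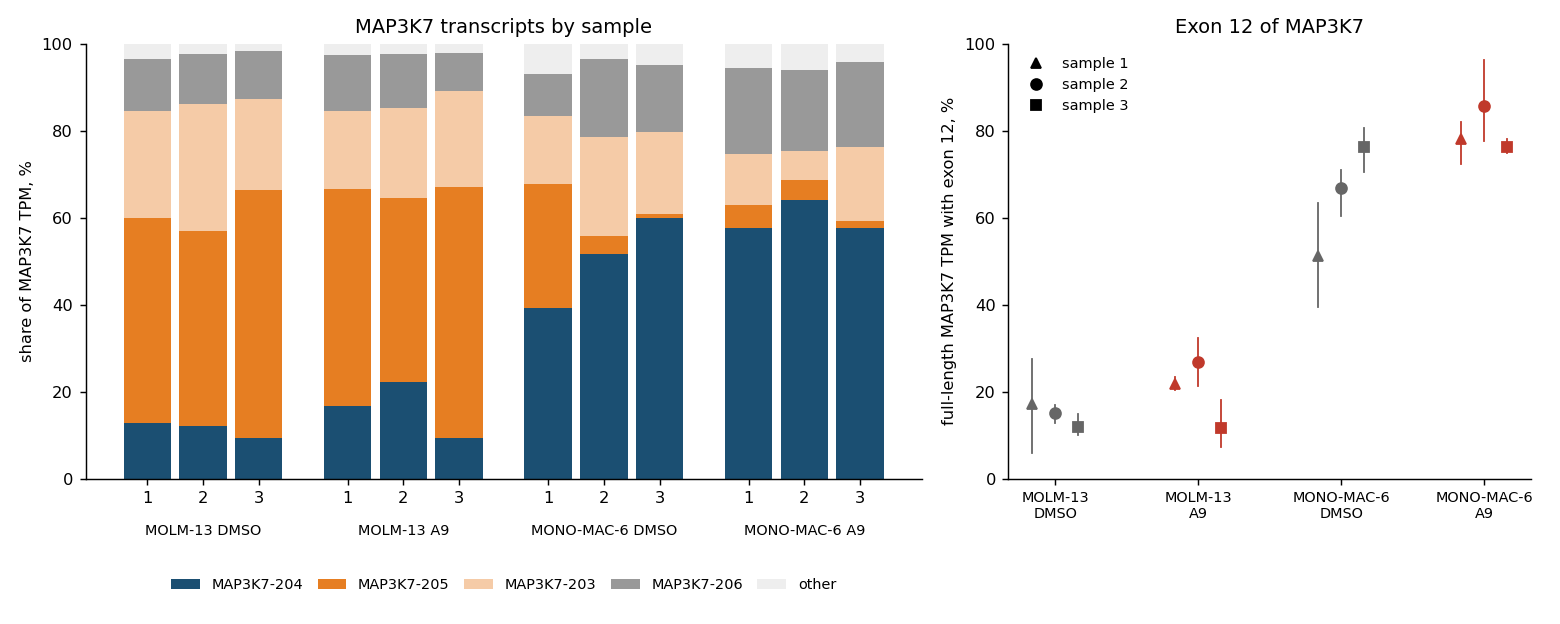
Shares of MAP3K7 TPM held by its transcripts in each of the 12 samples (left, stacked, percent) and the percent of full-length MAP3K7 TPM that holds exon 12 (right; points are samples, lines span the 3 libraries of a sample, grey is DMSO and red is A9). MAP3K7-205 leads in MOLM-13 and MAP3K7-204 in MONO-MAC-6, and the percent with exon 12 lies at or below 32.2 in every MOLM-13 library and at or above 39.5 in every MONO-MAC-6 library.

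Over all 7 genes, the fits covered 21 transcripts for MOLM-13 and 25 for MONO-MAC-6, and 0 of each passed in limma, against 0.0112% and 0.437% of all transcripts tested. At an unadjusted p under 0.05 MOLM-13 had 0 and MONO-MAC-6 had 5, 3 of IKBKB and 2 of IKBKE, where 5.46% and 16.6% of all transcripts were under it. Of 21 and 22 isoform shares tested, 0 passed in either line, as for all shares, and 0 and 2 had an unadjusted p under 0.05, both of IKBKB, against 3.26% and 8.62% of all shares.

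The genes that act around these kinases were read from 8 lists with 63 genes: receptors and adaptors, ubiquitin enzymes, deubiquitinases, partners of TAK1, the MAP kinase branch, adaptors and substrates of TBK1 and IKBKE, IKK chaperones, and IκB and NF-κB genes. In limma 0 of 59 tested genes passed in MOLM-13 and 0 of 61 in MONO-MAC-6, beside 0.121% and 3.36% of all genes, with 4 and 12 at an unadjusted p under 0.05, beside 7.89% and 20.4% of all genes. Their median log2 differences, -0.059 for MOLM-13 and 0.21 for MONO-MAC-6, stand beside the medians of -0.046 and 0.16 over all genes. Without MONO-MAC-6 DMSO sample 1, 18 of the 61 passed, beside 24.8% of all genes. Among the genes named below these were TNFRSF1B (0.43), TNIP1 (0.45), TNFAIP3 (0.38), MAP2K6 (-0.71), MAVS (0.27), HSP90AA1 (-0.33) and NFKBIE (0.53), with limma adjusted p from 0.00164 for HSP90AA1 to 0.0365 for MAVS. These lists were chosen with earlier results of these data known, and within each the gene with the lowest p in each line is named.

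Upstream, the TNF receptor gene TNFRSF1B led the 12 receptors and adaptors in both lines. It was at 15.98 TPM ± 1.76 and 18.4 TPM ± 3.18 in MOLM-13 (log2 difference 0.18, limma adjusted p = 0.870, and 0.32 without A9 sample 3). In MONO-MAC-6 it was at 26.9 TPM ± 5.25 and 40.7 TPM ± 2.04 (0.59, adjusted p = 0.111). The median of this list in MONO-MAC-6 was 0.38. Among the 12 ubiquitin enzymes it was RNF31, the catalytic subunit of the linear ubiquitin ligase, in MOLM-13 (0.29, adjusted p = 0.471). In MONO-MAC-6 it was TRAF3, which holds NIK low (0.30, adjusted p = 0.350, and 0.15 without DMSO sample 1). Among the 5 deubiquitinases and partners it was TNFAIP3, the NF-κB target that encodes the inhibitor A20, in MOLM-13 and its partner TNIP1 in MONO-MAC-6. TNIP1 was at 33.6 TPM ± 4.55 with DMSO and 49.5 TPM ± 2.36 with A9 there (0.55, adjusted p = 0.071). These groups did not overlap, as for 37.9% of all genes tested in that line. TNFAIP3 was at 6.96 TPM ± 1.67 and 4.35 TPM ± 0.938 in MOLM-13 (-0.57, adjusted p = 0.529) and at 21.2 TPM ± 6.82 and 33.0 TPM ± 0.962 in MONO-MAC-6 (0.67, adjusted p = 0.203).

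Beside TAK1, MAP3K1 had the lowest p of its list in MOLM-13 (-0.26, limma adjusted p = 0.759) and MAP3K8, a kinase that acts downstream of IKBKB, in MONO-MAC-6 (0.36, adjusted p = 0.305). In the MAP kinase branch the lowest p in MOLM-13 was that of MAPK8, the gene of JNK1 (-0.46, adjusted p = 0.840, and -0.17 without A9 sample 3). In MONO-MAC-6 it was that of MAP2K6, an activator of p38, at 4.86 TPM ± 0.906 with DMSO and 2.76 TPM ± 0.204 with A9 (-0.63, adjusted p = 0.085). Of the adaptors and substrates of TBK1 and IKBKE, the lowest p belonged to the transcription factor IRF3 in MOLM-13 (0.14, adjusted p = 0.712) and to the mitochondrial adaptor MAVS in MONO-MAC-6 (0.47, adjusted p = 0.243).

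The chaperone HSP90, with CDC37, keeps the IKK kinases folded. HSP90AB1 was at 1466 TPM ± 34.1 with DMSO and 1289 TPM ± 115 with A9 in MOLM-13 (-0.19, limma adjusted p = 0.629). HSP90AA1 was at 568 TPM ± 17.5 with DMSO and 453 TPM ± 13.5 with A9 in MONO-MAC-6 (-0.32, adjusted p = 0.067), and at 558 TPM ± 13.3 and 588 TPM ± 18.7 in MOLM-13. Of the 8 IκB and NF-κB genes, NFKBIE, which encodes IκBε, had the lowest p in both lines: 9.21 TPM ± 0.0987 and 12.03 TPM ± 0.316 in MOLM-13 (0.35, adjusted p = 0.289) and 11.7 TPM ± 1.15 and 16.5 TPM ± 1.05 in MONO-MAC-6 (0.46, adjusted p = 0.109). Its A9 and DMSO samples did not overlap in either line, as for 15% of all MOLM-13 genes and 37.9% of all MONO-MAC-6 genes tested.

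**Figure D5:**
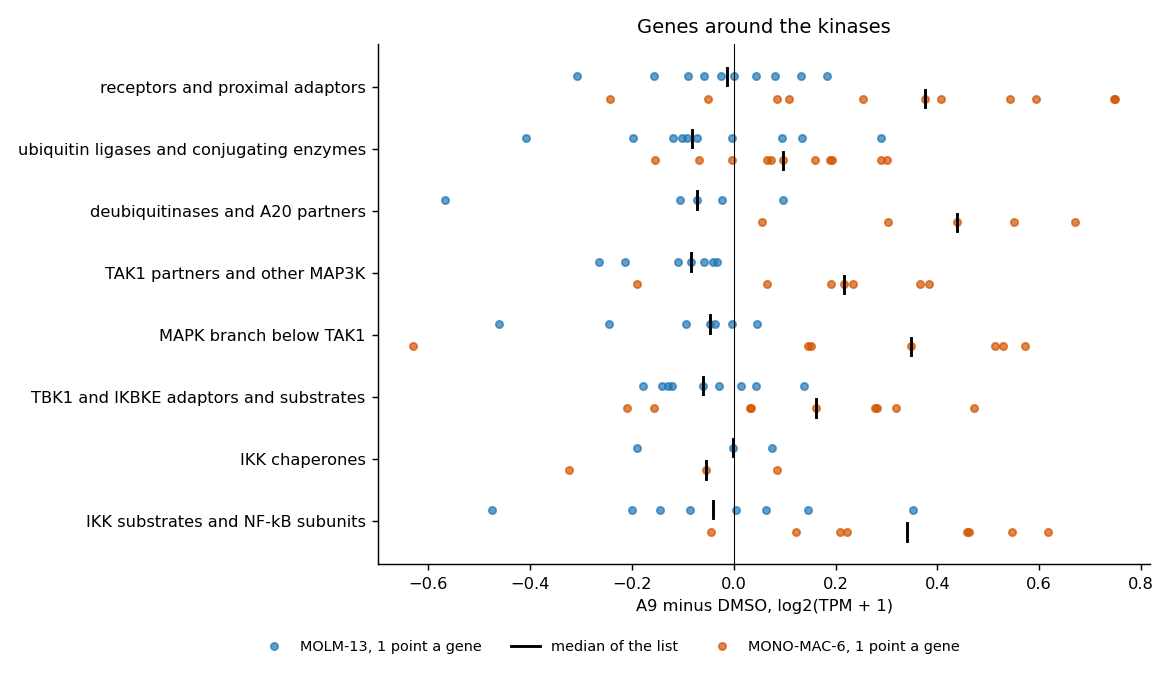
Log2 difference of A9 minus DMSO on log2(TPM + 1) (horizontal axis) for each tested gene of the 8 lists, in both lines, with the median of each list as a bar. In MONO-MAC-6 the list medians range from -0.055 for the chaperones to 0.44 for the deubiquitinases and their partners, beside 0.16 over all genes.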

How the data were processed

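Bulk poly(A) RNA was read in 36 libraries, 9 per group. The deposited unit is TPM per Ensembl transcript and library, and kallisto, limma and GRCh38 are named, with no role or version, in the submitters' processing notes. Of 207175 transcripts, 162561 (78.5%) matched GENCODE 29 (GRCh38), holding 89.9% to 91.4% of TPM per library, and were summed to 35490 genes. Antisense transcripts such as MAP3K14-AS1 are not in the tables. Libraries sharing a first number were averaged, giving 3 samples per group. Features that reached a group mean of 1 TPM were fitted on log2(TPM + 1) by limma 3.58.1 under R 4.3.3 (trend, robust, two-sided), with Benjamini-Hochberg adjustment across every feature fitted and a threshold of 0.05. Shares (arcsine of the square root) needed a gene mean of 5 TPM and a share of 5% to 95%. The script was tested on simulated data. Fits used only the line compared, except the test between lines. An exact permutation test of 3 against 3 cannot go below 0.1. Members with all values, transcripts with a mean share of 10% in a group, the lowest p per list and line, the 3 genes nearest in pattern and overlapping genes are named, except for an item not reported here. Members and lists were chosen with earlier results of these data known. Alternatives covered pseudocount, filters, scaling, averaging, a replicate block and each sample left out; applying them to the pathway genes and to ERLIN1, and leaving out the short-transcript samples from correlations and IKBKB transcript types, was chosen after seeing the data. Tables and figures used Python 3.11.15, pandas 2.3.3 and matplotlib 3.10.9.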

Additional observations from a re-analysis of the deposited data

Results flagged for a closer look

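HSP90AA1, the inducible HSP90 gene of the IKK chaperones, was the only gene of the lists to pass the test of the difference between the lines. In that test 2.99% of all genes passed. The A9 effect was -0.40 for MONO-MAC-6 minus MOLM-13 on the log2 scale (interaction in limma, adjusted p = 0.016). The A9 samples lay wholly above DMSO in MOLM-13 and wholly below it in MONO-MAC-6. In either direction, groups were apart for 15% and 37.9% of all genes tested in these lines. The call was lost with median-ratio scaling (adjusted p = 0.096), with the length trend removed (0.082), with the replicate block (0.077), and without MOLM-13 DMSO sample 2 (0.054), MOLM-13 A9 sample 1 (0.059), MONO-MAC-6 A9 sample 2 (0.058) or MONO-MAC-6 A9 sample 3 (0.064), all in limma and with the same sign.

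TNFAIP3, the gene of the inhibitor A20, was below DMSO in all 3 A9 samples of MOLM-13 and above DMSO in all 3 of MONO-MAC-6. In either direction, 15% and 37.9% of all genes tested in these lines had groups apart. The lines differed by 1.24 on the log2 scale, which did not pass in limma (adjusted p = 0.090). With median-ratio scaling the adjusted p was 0.016 and with the length trend removed 0.014.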

How the results depend on the processing

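With libraries averaged by second number, which puts all 3 first numbers into each average, calls went from 0 to 2 (MOLM-13) and 5 (MONO-MAC-6) of 6 members and 28 and 47 pathway genes (46.9% and 67.6% of all genes), 5 for the difference between the lines (63.4%), 3 and 17 transcripts (21.8% and 45.2%) and 8 shares in MONO-MAC-6 (21.3%). Pathway calls in MONO-MAC-6 were 1 of 61 with median-ratio scaling (4.29% of all genes) and 6 with the length trend removed (9.28%). Leaving out each sample gave 0 to 1 members, 0 to 1 transcripts (IKBKB-206) and 0 to 18 pathway genes called in MONO-MAC-6. Same-number correlations of the samples were 0.36, -0.077 and 0.68 for MOLM-13, where different-number ones ran from -0.68 to 0.63. For MONO-MAC-6 they were -0.027, 0.088 and -0.091, beside -0.13 to 0.13. These values do not settle whether first numbers pair the samples. The replicate block took calls over all genes from 14 to 87 in MOLM-13 and from 433 to 94 in MONO-MAC-6. With it 0 members were called (IKBKB 0.53 in MONO-MAC-6, limma adjusted p = 0.342). Of 1331 single values, 79 changed sign, 65 newly passed and 7 no longer did.

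Signs changed with the length trend removed for CHUK (0.040) and TBK1 (0.080) in MOLM-13, MAP3K7 (-0.13) in MONO-MAC-6, CHUK (-0.021), MAP3K7 (-0.28) and TBK1 (-0.087) between the lines, CHUK-201 (0.0050), CHUK-202 (0.0061) and TBK1-201 (0.0053) in MOLM-13, and CHUK-201 (-0.043) and IKBKB-217 (-0.20) in MONO-MAC-6. With median-ratio scaling they changed for TBK1 (0.037) in MOLM-13, MAP3K7 (-0.023) in MONO-MAC-6 and (-0.11) between the lines, CHUK-202 (0.0089) in MOLM-13, and CHUK-201 (-0.079), IKBKB-217 (-0.21) and IKBKE-203 (-0.029) in MONO-MAC-6. With only the first library of each sample they changed for IKBKG (0.074) and IKBKB-217 (-0.016) in MONO-MAC-6, IKBKB-219 (0.20) in MOLM-13, and the MOLM-13 shares of CHUK-202 (-2.05 points), IKBKB-214 (-0.088), IKBKB-219 (3.40), IKBKG-206 (-1.35), IKBKG-214 (-0.61) and MAP3K7-205 (-0.30). Averaging by second number gave -0.21 points for IKBKG-206 in MOLM-13. Leaving out each sample spanned 0 in MOLM-13 for CHUK (-0.12 to 0.055), CHUK-201 (-0.17 to 0.056), CHUK-202 (-0.17 to 0.077), IKBKB-214 (-0.35 to 0.078), IKBKE-202 (-0.072 to 0.15), IKBKG-205 (-0.44 to 0.011), MAP3K7 (-0.027 to 0.11), MAP3K7-205 (-0.0078 to 0.089), MAP3K7-206 (-0.065 to 0.19), TBK1 (-0.13 to 0.12) and TBK1-201 (-0.20 to 0.11). It did so in MONO-MAC-6 for IKBKB-217 (-0.16 to 0.15), IKBKG (-0.12 to 0.049), TBK1 (-0.048 to 0.37) and TBK1-201 (-0.025 to 0.63), and between the lines for MAP3K7 (-0.029 to 0.27) and TBK1 (-0.039 to 0.38). Shares in points spanned 0 for CHUK-201 (-2.81 to 0.65), CHUK-202 (-1.52 to 1.67), IKBKB-214 (-0.51 to 0.89), IKBKB-217 (-0.94 to 3.87), IKBKB-219 (-1.64 to 0.93), IKBKG-206 (-5.03 to 3.27), MAP3K7-205 (-3.74 to 3.97) and MAP3K7-206 (-0.73 to 1.28) in MOLM-13 and IKBKE-203 (-2.40 to 3.70) in MONO-MAC-6. The cause was not tested. TPM hold no counts, so what depth limits is unknown.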

Other observations

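ERLIN1 is an endoplasmic reticulum membrane protein gene whose end overlaps that of CHUK by 37 bases. It was at 46.0 to 89.0 TPM with DMSO and 112 to 114 TPM with A9 in MONO-MAC-6. Every A9 sample lay above every DMSO sample, as for 27.2% of all genes tested there, with a log2 difference of 0.69 (limma adjusted p = 0.190). Without DMSO sample 1 that difference was 0.40 (limma adjusted p = 0.00119), in a fit where 24.8% of all genes passed. Whether reads were shared between it and CHUK was not tested.

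The genes nearest in pattern to each member, over 12 samples with the mean of each line removed and among 7839 genes with at least 5 TPM in every group, are given as a description that includes the 2 samples of short mean transcript length. PTK2B, SMYD4 and TRIM37 were nearest to IKBKB (Pearson r 0.995 to 0.994), MAT2A, CCDC169 and UBP1 to CHUK (0.985), and TOPORS, NEK7 and CUL5 to TBK1 (0.987 to 0.986). NEMF, CHD2 and METTL8 were nearest to IKBKE (0.940 to 0.917), NBN, BTBD1 and WRN to MAP3K7 (0.964 to 0.954), and C4orf3, PIGY and PYURF to IKBKG (0.962 to 0.956).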
